A study of Mus musculus with 11 samples.

Results

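The response of cultured newborn mouse microglia to 3 cytokines was described across all genes measured on 6 of the 11 arrays of a series on microglia in and out of culture. The members were set by sample title, with earlier results of these data known: 3 arrays of cultures given the cytokines (NB_Stim) and 3 of cultures without them (NB_Control). Both groups came from C57BL/6N mice of both sexes, taken in the first days after birth. Cells of several brains were pooled in a flask and kept for weeks as a glial culture, with additions of L-929 conditioned medium, which is rich in M-CSF. Microglia were then shaken off and kept for 1 day in serum-containing DMEM/F12. NB_Stim wells also received human TGF-β1, IL-34 and CX3CL1, each of them at 100 ng/mL and always together. On these arrays the effect of 1 cytokine therefore cannot be told from that of the others. By RT-qPCR with the cytokines given singly and combined, the study ascribed the rise of its homeostatic genes mainly to TGF-β1. Freshly sorted newborn microglia (NB_FACS, 3 arrays) are quoted below only as a level, and sorted adult cells entered the normalisation, the filter on dim probes and the estimate of spread but no comparison. The study counts its samples as independent biological replicates, and the labels do not say whether any shared a flask. Replicates 1 and 2 of each culture lay on 1 slide and replicate 3 on another, and the slide 1 replicates of a group differed by a mean of 0.172 (NB_Control) and 0.19 (NB_Stim) on the log2 scale, against 0.406 to 0.499 between them and replicate 3.

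Microglia are the resident macrophages of the brain, and their identity depends on signals from neighbouring cells. TGF-β binds a receptor pair that phosphorylates SMAD proteins, which then act on transcription, and loss of this input is known to strip microglia of their homeostatic genes. IL-34 is a neuronal ligand of CSF1R, the receptor on which microglial survival rests, and CX3CL1 is a neuronal chemokine read by the Gi-coupled receptor CX3CR1. Values below are quantile normalised log2 intensities, differences are NB_Stim minus NB_Control, an error after a difference is limma's standard error, and "called" means that limma's moderated two-sided test gave an adjusted p below 0.05, with adjustment over all genes. Because each probe has its own brightness, levels are compared between arrays and not between genes. In bulk RNA, fewer cells of a type and less RNA per cell cannot be told apart. The gene lists used below were written with earlier results of these data known, so their counts and medians are no independent evidence.

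All 13 tested microglia markers read higher in NB_Stim than in NB_Control, by as little as 0.08 for Csf1r. Of them 4 were called, all higher, against 1.4% of all genes. Tmem119, Cx3cr1 and Olfml3 are genes that the study chose for display on these samples, and so no independent evidence of direction. The call of Ctss (0.60) was lost without any 1 of the 6 arrays (adjusted p 0.0552 to 0.177). C1qa, C1qb, Trem2 and Itgam were well above background on all 6 arrays, while Gpr34 was not well above background on any of them. Neuron, astrocyte, neutrophil, erythroid and lymphocyte markers gave 0 calls among 14, 11, 9, 5 and 9 tested genes. The median difference of the astrocyte markers was -0.05 on slide 1 and 0.98 on slide 2. Their summed linear signal overlapped between the groups, and the part of astrocytes in the results was not tested. Pericyte and fibroblast transcripts such as Acta2, Tagln and Col1a2 were well above background on all 6 cultured arrays. The summed linear signal of the 13 fibroblast markers lay between 15.8 and 16.0 (log2) in NB_Control and between 15.0 and 16.1 in NB_Stim. Their median difference was 0.05 on slide 1 and -1.41 on slide 2, and its part in the results was not tested. The 8 border macrophage markers, which set macrophages of the brain's coverings apart from microglia, all read lower in NB_Stim, with a median of -1.65.

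Of 19572 genes tested, 666 (3.4%) were called, of which 274 (1.4%) were higher and 392 (2%) lower in NB_Stim. The called genes moved by a median of 2.25-fold in either direction, and 425 of them by at least a log2 difference of 1. The falls reached further, with 28 genes lower and 9 higher by a log2 difference of 3 or more. In all 666 called genes the NB_Stim and NB_Control arrays did not overlap and the difference had the same sign on both slides. The groups did not overlap in 24% of all genes. The call rests on these same arrays, so the lack of overlap and the shared sign largely follow from it and are no separate support. With slide as a block 1474 genes were called, including all 666, and on the slide 1 arrays alone 1018, of which 540 were among the 666. A fit with the replicate number as a block called 637 (278 higher, 359 lower), 421 of them shared. When replicates 1 and 2 of each culture were averaged, so that each group had 2 values, 118 were called. Leaving out single arrays gave 332 calls without NB_Control replicate 1, 330 without NB_Control replicate 2, 296 without NB_Stim replicate 1 and 309 without NB_Stim replicate 2. Of the 146 called genes chosen for naming, 36 kept the call in all alternatives run for them, 105 lost it under that averaging and 98 under the methods' Tukey test after adjustment, and losses on leaving out arrays or under the replicate block are given beside them. Normexp background correction with an offset of 50, which draws dim signals together by its construction, made the differences of many dim genes smaller, and its value is given beside a gene where it was smaller by over 1.5 times. The median difference over all genes was -0.00074. Where a list below is given without them, the shares to set beside its calls are 1.4% of all genes higher and 2% lower. The called genes were spread over the whole range of signal, as the plot of difference against level shows.

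**Figure D1:**
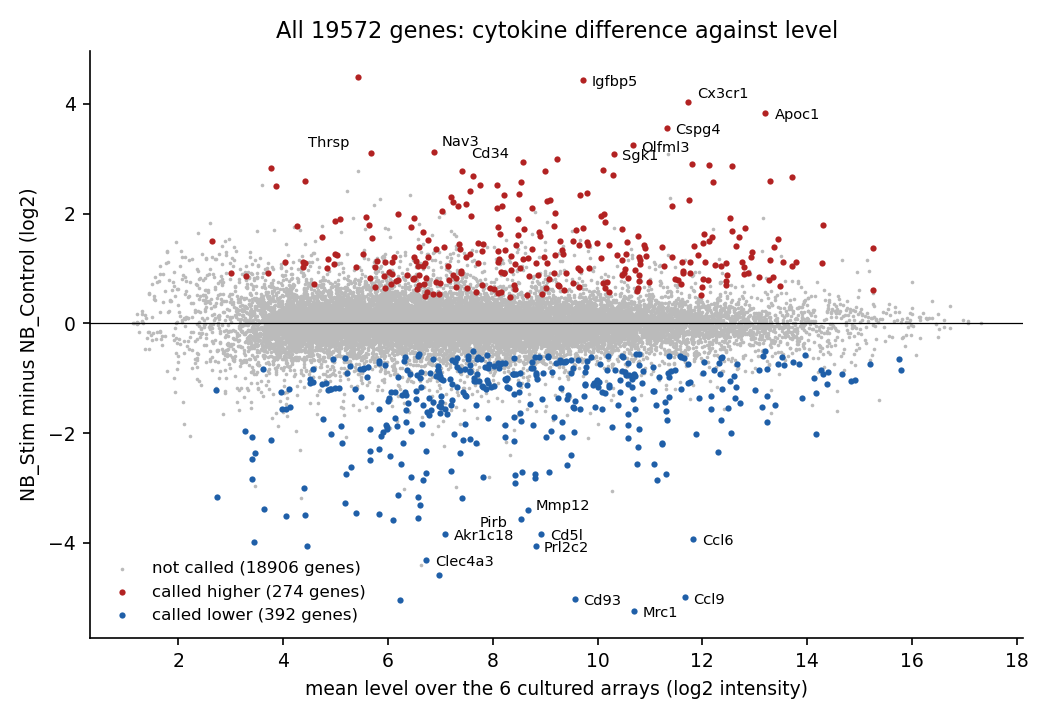
Difference between NB_Stim and NB_Control (log2, vertical axis) against the mean level over the 6 cultured arrays (log2 intensity, horizontal axis), 1 point per gene, with 274 genes called higher in red, 392 called lower in blue and the rest grey. The bulk of the points lies around 0, and the largest falls, among them Mrc1 and Cd93, reach further from 0 than the largest rises, among them Igfbp5 and Cx3cr1.

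The gene with the largest rise among those with all probes above background was Igfbp5, a secreted protein that binds insulin-like growth factors. Its NB_Control arrays read 7.81, 7.84 and 6.87 and its NB_Stim arrays 11.84, 11.95 and 12.01, a rise of 4.43 ± 0.48 (21.6-fold, adjusted p = 0.00112). The stimulated arrays lay close together, while control replicate 3 read lowest. The largest fall was that of Mrc1, the mannose receptor CD206, with NB_Control arrays at 13.31, 13.27 and 13.40 and NB_Stim arrays at 8.01, 8.06 and 8.17. It fell by 5.24 ± 0.19 on the log2 scale (37.9-fold, adjusted p = 3.59e-06), by nearly the same amount on both slides (-5.25 and -5.23). Sorted newborn cells read 13.15 ± 0.07 (SD, n = 3) for Mrc1, near NB_Control. Ccl9, a CC chemokine that draws CCR1-bearing myeloid cells, read 14.52, 14.57 and 13.40 in NB_Control and 9.47, 9.37 and 8.67 in NB_Stim, and fell by 4.99 ± 0.31 (31.9-fold, adjusted p = 7.1e-05). Replicate 3 read lowest for Ccl9 in each group, and the groups stayed far apart. Sorted cells read 12.66 ± 0.09 for Ccl9, also nearer to NB_Control. The promoters of these 3 genes are shown because they are among the largest changes and because the Igfbp5 and Ccl9 windows hold the same SMAD-binding letters although the genes moved in opposite directions. They are RefSeq sequences of build GRCm38.p6, mostly upstream of the annotated start with a short stretch past it, written along the gene's strand. Capitals mark letters of the longer SMAD motif GTCTAGA, the shorter SMAD box GTCTG, the PU.1 box GAGGAAG, the AP-1 site TGACTCA and the E-box motif CACGTG, on either strand.
Igfbp5, chr1:72874816-72875115, minus strand: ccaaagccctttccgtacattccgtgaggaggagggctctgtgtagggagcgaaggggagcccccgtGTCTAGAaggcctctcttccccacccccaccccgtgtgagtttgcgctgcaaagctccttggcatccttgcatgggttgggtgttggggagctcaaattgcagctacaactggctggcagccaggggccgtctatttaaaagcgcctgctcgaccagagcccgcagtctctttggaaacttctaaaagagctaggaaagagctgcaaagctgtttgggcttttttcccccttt
Ccl9, chr11:83578587-83578886, minus strand: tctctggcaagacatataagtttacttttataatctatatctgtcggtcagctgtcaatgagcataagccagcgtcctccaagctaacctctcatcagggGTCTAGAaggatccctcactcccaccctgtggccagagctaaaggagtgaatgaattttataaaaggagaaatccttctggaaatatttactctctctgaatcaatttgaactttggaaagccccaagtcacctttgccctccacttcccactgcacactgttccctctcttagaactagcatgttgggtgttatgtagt
Mrc1, chr2:14229164-14229463, plus strand: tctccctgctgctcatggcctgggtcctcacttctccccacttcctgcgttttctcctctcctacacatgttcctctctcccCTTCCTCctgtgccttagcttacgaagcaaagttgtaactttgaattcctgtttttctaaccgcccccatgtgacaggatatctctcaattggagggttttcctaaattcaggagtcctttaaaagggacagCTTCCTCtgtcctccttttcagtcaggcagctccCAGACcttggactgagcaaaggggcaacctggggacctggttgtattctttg
Igfbp5 and Ccl9 each hold GTCTAGA, and Mrc1 holds the PU.1 box on the opposite strand, which reads CTTCCTC here, at 2 places and the shorter SMAD box on that strand once. Such matches describe the letters only.

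Cspg4 and Flt1, known chiefly from other cell types, were among the largest rises. Cspg4, the NG2 proteoglycan of oligodendrocyte precursors and pericytes, read 9.67, 9.59 and 9.34 in NB_Control and 13.48, 13.42 and 12.41 in NB_Stim, a rise of 3.57 ± 0.45 (11.9-fold, adjusted p = 0.0026). Sorted newborn microglia read 7.85 ± 0.09 (SD, n = 3), below both cultures. Of the 10 oligodendrocyte lineage markers tested, Cspg4 was the 1 called, the median difference was 0.24, and it was 0.02 on slide 1 and 0.97 on slide 2. On slide 2 the precursor markers Olig2, Pdgfra and Olig1 read higher in NB_Stim by 3.74, 3.21 and 2.44, against 0.17, 0.05 and 0.19 on slide 1, where Cspg4 differed by 3.82. None of these 3 was called. Mbp (-0.03), Gpr17 (-0.07) and Mobp (-0.12), markers of later stages, did not read higher on slide 2, and the part of oligodendrocyte precursors in the results was not tested. The summed signal of the 10, Cspg4 included, lay between 10.8 and 11.3 (log2) in NB_Control and between 13.3 and 13.7 in NB_Stim. Flt1, a VEGF receptor, rose by 2.78 ± 0.29 (6.88-fold, adjusted p = 0.000811), from 8.01, 7.82 and 6.99 to 10.29, 10.35 and 10.52. It was the 1 of 11 endothelial markers called (9.09%, against 3.4% of all genes), and 4 of the 11 were higher without overlap, against 10.1% of all genes. Of these, Tek and Slco1a4 were not well above background on any of the 6 arrays, and Ly6c1 differed by 0.32. Pecam1 (-0.53) and Cdh5 (-0.15), both well above background, read lower and overlapped, and the summed signal of the 11, Flt1 included, lay between 10.3 and 10.5 (log2) in NB_Control and between 11.1 and 11.4 in NB_Stim.

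Sgk1, a serum- and glucocorticoid-regulated kinase, read 9.06, 9.01 and 8.23 in NB_Control and 12.03, 12.05 and 11.48 in NB_Stim, up 8.48-fold (adjusted p = 0.000209), with sorted cells at 7.79 ± 0.10. Thrsp, a nuclear protein of lipogenesis, rose by 3.10 ± 0.15 (adjusted p = 1.14e-05) from 4.13 ± 0.15 to 7.23 ± 0.22 (SD, n = 3). Sorted cells read 5.93 ± 0.06 for Thrsp, and for both genes the stimulated cultures read above the sorted cells as well as above the control cultures. Nav3, a neuron navigator protein listed among homeostatic microglial genes, rose by 3.12 ± 0.32, Tent5c, a poly(A) polymerase that stabilises transcripts of secreted proteins, by 2.89 ± 0.20, and 1300017J02Rik by 3.00 ± 0.30. Cd34, a sialomucin of progenitor cells, rose by 2.94 ± 0.62 (adjusted p = 0.0333), with control replicate 3 at 5.32 against 7.92 and 8.08 in the other controls, and its call was lost on leaving out any 1 NB_Stim array (adjusted p 0.0067 to 0.126 over the 6 arrays left out in turn). Igfbp5, Sgk1, Thrsp, Nav3, Tent5c, 1300017J02Rik and Flt1 kept their calls in every alternative processing that was run, though normexp correction gave smaller rises for Thrsp (1.44) and Nav3 (1.99).

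Among the other large falls were a receptor, a scavenger protein and enzymes. Cd93, a C-type lectin-like transmembrane receptor of monocytes and endothelium, read 12.04, 11.78 and 12.42 in NB_Control and 6.96, 7.07 and 7.15 in NB_Stim and fell by 5.02 ± 0.24 (32.4-fold, adjusted p = 1.14e-05). Sorted cells read 10.69 ± 0.27 (SD, n = 3) for it. Cd5l, a secreted scavenger protein of tissue macrophages, fell by 3.84 ± 0.61 (adjusted p = 0.00851), with control replicate 3 at 12.53 against 10.25 and 9.76, and the replicate block ended its call (adjusted p = 0.0626). Akr1c18, a steroid dehydrogenase that degrades progesterone, fell by 3.84 ± 0.50. Plac8, a small cysteine-rich protein abundant in monocytes, fell by 3.12 ± 0.43, and the same block ended its call (adjusted p = 0.0512), while normexp correction gave -1.77. Prl2c2 (proliferin, whose near-identical family members may share its probe) fell by 4.05 ± 0.77, and its call was lost without NB_Control replicate 2 or 3 and without NB_Stim replicate 1 or 2 (adjusted p 0.00183 to 0.0933). Among the 12 largest falls, sorted cells read nearer to NB_Control for Mrc1, Cd93, Ccl9, Clec4a3 and Ccl6. For the others they read nearer to NB_Stim or below it. The plot of the largest changes holds only genes whose groups did not overlap.

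**Figure D2:**
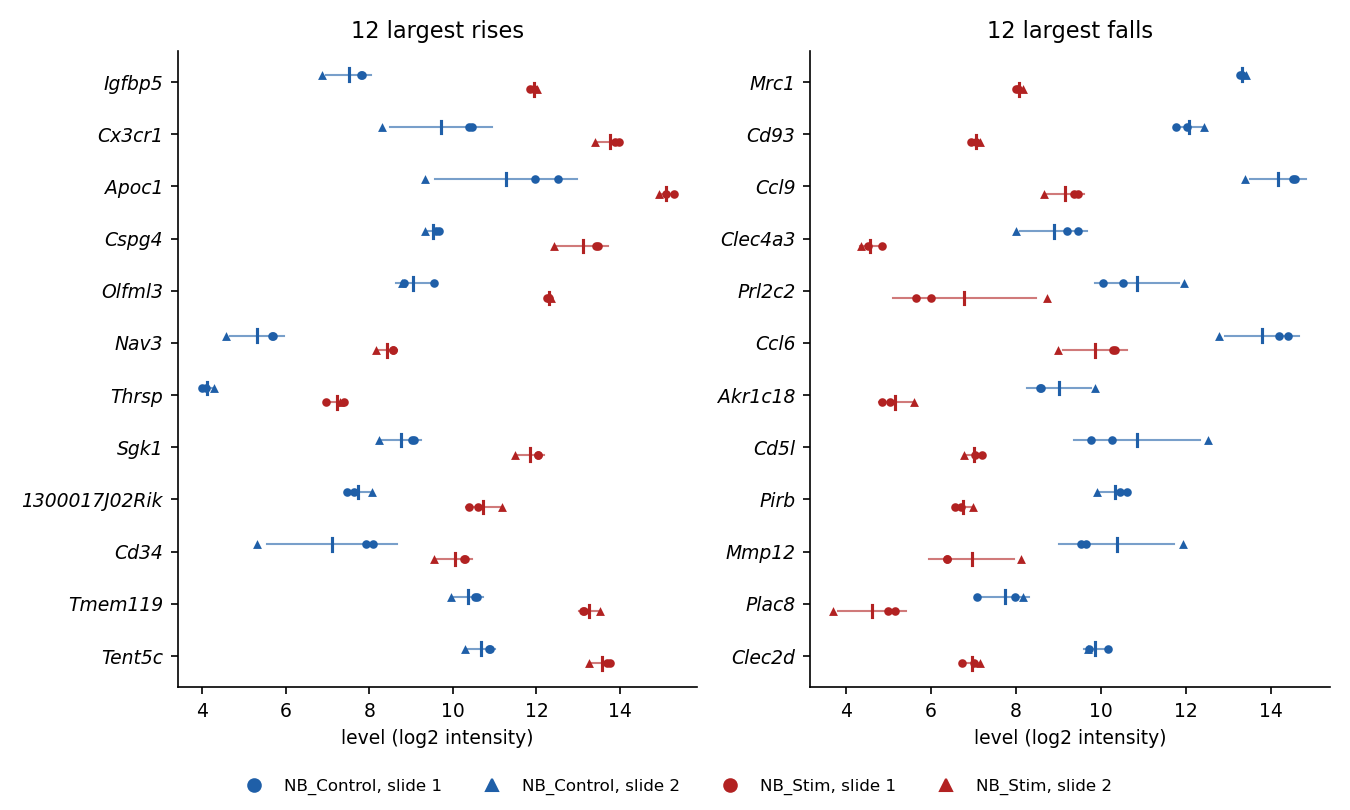
Levels (log2 intensity, horizontal axes) on each cultured array for the 12 largest rises (left) and the 12 largest falls (right) among called genes whose probes were all above background, with circles for slide 1, triangles for slide 2, vertical ticks for group means and horizontal lines for ± 1 SD (n = 3). Genes were drawn only where blue and red points do not overlap, and the scatter of a group comes mostly from replicate 3, as for Apoc1 and Cd34 in NB_Control and Prl2c2 in NB_Stim.

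In the TGF-β pathway, the type I receptor and nuclear co-repressors rose while most ligands and SMADs did not pass the test. Tgfbr1, the type I receptor kinase that phosphorylates SMADs, read 5.52, 5.41 and 5.67 in NB_Control and 7.43, 7.69 and 7.25 in NB_Stim, a rise of 1.92 ± 0.21 (3.79-fold, adjusted p = 0.0012), or of 1.16 with normexp correction. Tgfbr2, which binds the ligand first, did not pass the test (0.56 ± 0.16, adjusted p = 0.0968), although its arrays at 13.08, 12.89 and 12.78 and 13.26, 13.38 and 13.80 did not overlap. The co-receptor Tgfbr3 did not pass either (-1.83 ± 0.48, adjusted p = 0.0807). The endogenous ligands Tgfb1 (-0.03), Tgfb2 (0.96) and Tgfb3 (0.07) were not called. Bmpr2, the type II receptor for bone morphogenetic proteins, rose by 1.04 ± 0.13 (adjusted p = 0.00215). Inhbb, an activin subunit, fell by 1.64 ± 0.25 (adjusted p = 0.00667, not called on the slide 1 arrays alone), and Nrros, which holds latent TGF-β1 on microglia, fell by 1.52 ± 0.25 (adjusted p = 0.0102), a call lost without NB_Control replicate 2 (adjusted p = 0.0502). Of 21 ligands and receptors tested, 2 were called higher and 2 lower, with a median of 0.14.

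Of 19 SMADs and feedback genes tested, 3 (15.8%) were called, all higher, against 1.4% of all genes, and the median was 0.25. Ski, a nuclear co-repressor that binds SMADs, read 11.47, 11.44 and 11.25 in NB_Control and 12.77, 12.86 and 13.00 in NB_Stim and rose by 1.49 ± 0.12 (2.81-fold, adjusted p = 0.000242). Its relative Skil (SnoN) rose by 1.26 ± 0.18 (adjusted p = 0.00424), and the ubiquitin ligase Smurf1, which marks SMADs for degradation, rose by 0.64 ± 0.13, a call that ended without any 1 of 5 of the 6 arrays (adjusted p 0.0281 to 0.128). The groups of all 3 genes did not overlap. The inhibitory Smad7, a textbook early target of TGF-β, read 9.53, 9.40 and 10.51 and 9.67, 9.74 and 10.18, a difference of 0.05 ± 0.32 (adjusted p = 0.973) whose groups overlapped. Smad6 (0.58), Smad2 (-0.32), Smad3 (0.05), Smad1 (0.11), Smad5 (0.25) and Smad9 (0.09) were not called, and the small differences of Smad7, Smad3, Smad1 and Smad9 changed sign with the processing. Among 29 TGF-β induced targets, 3 were called higher and 1 lower. Tgfbi, a secreted matrix protein named for its induction by TGF-β, rose by 2.87 ± 0.24 (7.3-fold, adjusted p = 0.000281), from 11.44, 11.41 and 10.52 to 14.03, 13.84 and 14.11, and the prostaglandin D synthase Hpgds fell by 0.87 ± 0.13. The median of the targets was 0.18 on slide 1 and -0.27 on slide 2.

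In the CSF1R pathway, through which IL-34 acts, 1 gene of 27 (3.7%) was called, a share near the 3.4% of all genes. Csf1r read 6.22, 5.87 and 5.99 in NB_Control and 6.06, 6.11 and 6.14 in NB_Stim (0.08 ± 0.26, adjusted p = 0.951), on a single matched probe at low signal that may not reflect the whole transcript, and its ligands Csf1 (0.63) and Il34 (-0.25) and the alternative IL-34 receptors Ptprz1 (0.36) and Sdc1 (-1.04) were not called. Csf1 differed between the slides, at 1.23 on slide 1 and -0.57 on slide 2. The gene called was Plcg2, a phospholipase downstream of CSF1R and TREM2, which rose by 0.77 ± 0.18 (adjusted p = 0.0468) and lost its call without any 1 of 5 of the arrays (adjusted p 0.0409 to 0.182), and under the replicate block (adjusted p = 0.0527), and it differed by 0.50 with 75th percentile scaling.

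On the CX3CL1 side, the receptor gene Cx3cr1 read 10.40, 10.45 and 8.30 in NB_Control and 13.97, 13.89 and 13.39 in NB_Stim, a rise of 4.03 ± 0.50 (16.4-fold, adjusted p = 0.00221). Control replicate 3 read lower than the other controls. Sorted cells, which were selected for high CX3CR1 protein signal, read 13.95 ± 0.29 (SD, n = 3). The ligand gene Cx3cl1 was not called (0.37). Of 16 genes on this list 3 were called higher and 0 lower, while the median was -0.046, with 8 reading higher and 8 lower. Besides Cx3cr1 the genes called were Adam10, the protease that sheds CX3CL1 from membranes (0.71, adjusted p = 0.00858), and Rgs2, a regulator of G proteins (0.80, adjusted p = 0.0466). Adam10 lost its call without NB_Stim replicate 1 (adjusted p = 0.0516) and under the replicate block (adjusted p = 0.0605), with a difference of 0.45 and no call under 75th percentile scaling, and Rgs2 without any 1 of the 6 arrays (adjusted p 0.055 to 0.173).

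**Figure D3:**
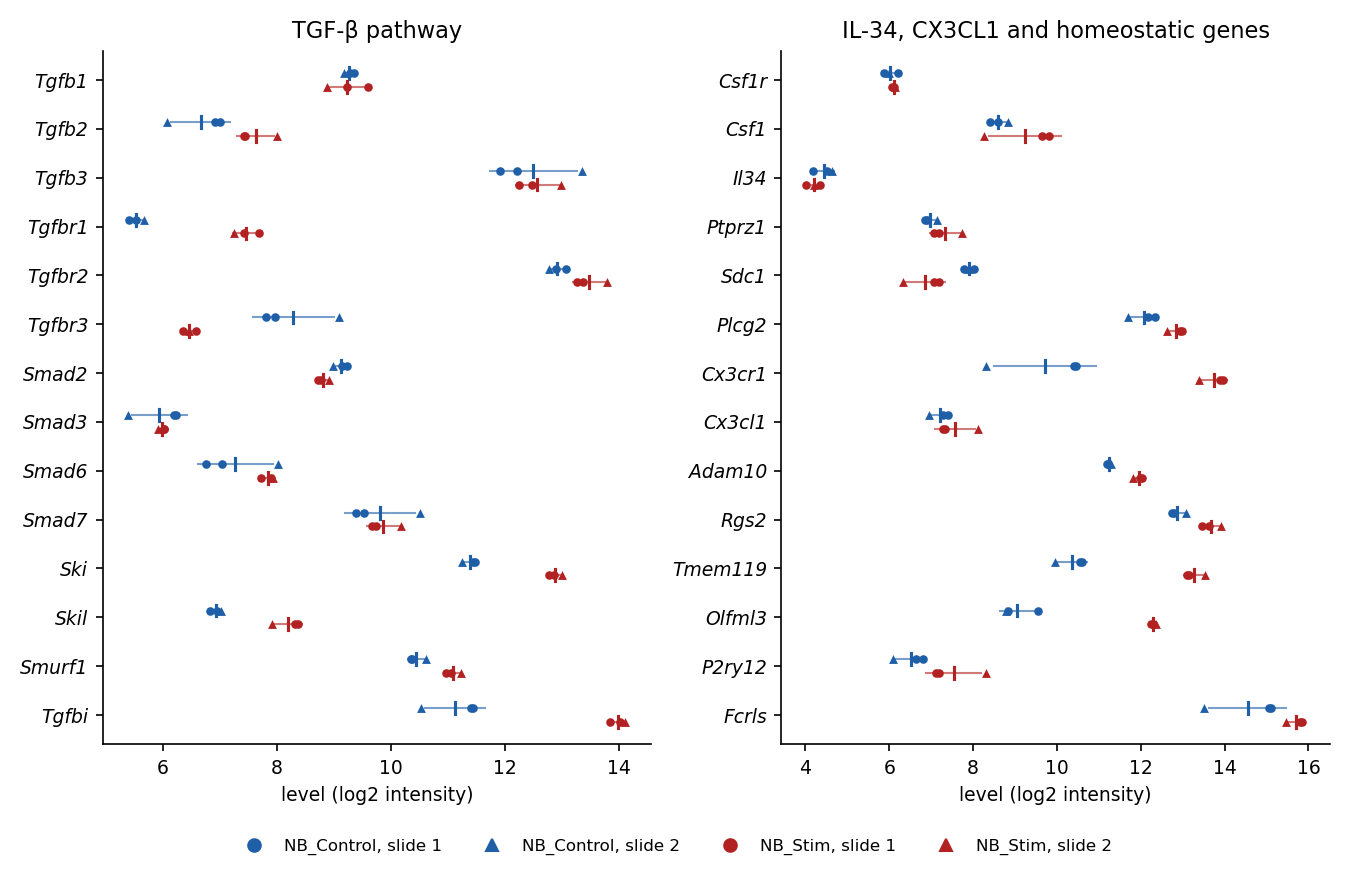
Levels (log2 intensity, horizontal axes) on each cultured array for TGF-β ligands, receptors, SMADs, feedback genes and Tgfbi (left) and for genes of the IL-34 and CX3CL1 pathways with 4 homeostatic genes (right), drawn with circles for slide 1, triangles for slide 2, ticks for means and lines for ± 1 SD (n = 3). Tgfbr1, Ski, Skil, Tgfbi, Cx3cr1, Tmem119 and Olfml3 separate by colour, whereas Tgfb1, Smad7 and Csf1r overlap.

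The 7 homeostatic genes followed in the study, a list the study chose for display on these samples and so no independent evidence of its direction, gave 5 calls, all higher, with a median of 1.92. The groups of all 7 did not overlap, against 10.1% of all genes that were higher without overlap. Tmem119, a transmembrane protein used to mark microglia, read 10.54, 10.59 and 9.95 in NB_Control and 13.11, 13.14 and 13.53 in NB_Stim (a rise of 2.90 ± 0.19, adjusted p = 9.69e-05), and Olfml3, a secreted olfactomedin-like protein, rose by 3.24 ± 0.19 (adjusted p = 5.38e-05), to 12.29, 12.26 and 12.36 against 12.21 ± 0.10 (SD, n = 3) in sorted cells. P2ry12, the ADP receptor that steers microglial processes, read 6.63, 6.80 and 6.10 and 7.12, 7.19 and 8.30 (1.03 ± 0.31, adjusted p = 0.121). Its stimulated arrays stayed far below the 12.95 ± 0.14 of sorted cells. Fcrls, an Fc receptor-like scavenger receptor, read 15.07, 15.11 and 13.50 and 15.84, 15.81 and 15.47 (1.15 ± 0.37, adjusted p = 0.16).

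Of 37 further homeostatic genes 8 (21.6%) were called higher and 3 lower, against 1.4% and 2% of all genes. Golm1, a Golgi membrane protein, read 10.76, 10.80 and 10.30 in NB_Control and 13.04, 13.01 and 12.57 in NB_Stim and rose by 2.25 ± 0.18 (4.77-fold, adjusted p = 0.000209). Itgb5, the integrin β5 subunit that takes part in uptake of apoptotic cells and activation of latent TGF-β, rose by 1.80 ± 0.16 (adjusted p = 0.000428), from 13.61, 13.52 and 13.05 to 15.20, 15.15 and 15.24. Rnase4, a secreted ribonuclease whose transcription unit overlaps that of Ang, rose by 1.72 ± 0.16. The 3 members called lower were Entpd1 (CD39, which breaks down extracellular ATP, -1.46, or -0.84 with normexp correction), Gas6 (a bridging ligand of TAM receptors, -1.36) and Hpgds. The call of Gas6 ended without NB_Stim replicate 1 or 2 (adjusted p 0.00901 to 0.0631). Of 24 purinergic genes 4 were called lower, Entpd1 among them, and P2ry13, an ADP receptor, higher (1.14), a call lost without any 1 of 5 of the arrays (adjusted p 0.034 to 0.141) and with normexp correction (0.58).

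Among transcription factors 3 of 43 (6.98%) were called higher and 4 (9.3%) lower, against 1.4% and 2% of all genes. Maf, a macrophage regulator, read 12.30, 12.36 and 11.95 in NB_Control and 10.37, 10.34 and 10.62 in NB_Stim and fell by 1.77 ± 0.14 (3.4-fold, adjusted p = 0.000217). Sorted cells read 11.70 ± 0.03 (SD, n = 3) for Maf, nearer to NB_Control. Pparg, the lipid-sensing nuclear receptor of alternatively activated macrophages, fell by 4.59 ± 0.66 (adjusted p = 0.00489), from 8.62, 8.55 and 10.67 to 4.29, 3.93 and 5.85, and was well above background on 2 of the 3 NB_Stim arrays, and normexp correction gave -2.98. Spic, a factor of iron-recycling macrophages, was well above background on the 3 NB_Control arrays and on 0 of the NB_Stim arrays. Its fall can therefore only be estimated, at 8-fold. Such an estimate takes on each dim array the higher of 2 signals, which for Spic was its own. They are the probe's own signal and the lowest that counts as well above background for any probe. Because that mark differs between probes, the estimate is no strict lower limit. It depends on the arrays and the background: without NB_Stim replicate 3 the log2 difference was -2.46, and with normexp correction -0.86. Sall3, a relative of the microglial factor Sall1, rose by 1.32 ± 0.18 (adjusted p = 0.00385), and the replicate block ended its call (adjusted p = 0.0512). Bhlhe41 (1.27) and Cebpa (1.11) were also higher, and Batf (-0.95) lower, and these 3 calls ended on leaving out single arrays (adjusted p 0.0197 to 0.0897, 0.0158 to 0.126 and 0.0524 to 0.108 in that order), with Batf at -0.58 under normexp correction.

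C-type lectins and scavenger receptors, which bind sugars, lipoproteins and dying cells, had the lowest median of the 53 pathway lists. Because the lists were written with earlier results known, this rank describes the data only. Of 33 tested, 11 (33.3%) were called lower and 1 higher, and the median was -1.17, against -0.00074 for all genes. It was -1.21 on slide 1 and -1.17 on slide 2. Besides Mrc1 and Cd93, Clec4a3 fell from 9.19, 9.47 and 8.00 to 4.87, 4.52 and 4.37 (19.8-fold, adjusted p = 0.000209). Clec4n (dectin-2, a receptor for fungal mannans) read 12.29, 12.50 and 12.87 in NB_Control and 9.99, 9.72 and 9.39 in NB_Stim and fell by 2.86 ± 0.24 (adjusted p = 0.000251). Clec4a2 fell by 3.55 ± 0.22 and Clec4b1 by 2.71, and probes of the Clec4a cluster may cross-react, since its members are close copies. Cd36, a receptor for oxidised lipids, fell by 3.18 ± 0.25 (9.09-fold, adjusted p = 0.000209), Stab2, a hyaluronan receptor above background on 2 of 3 NB_Stim arrays, by 3.27 ± 0.43, and Msr1, the class A scavenger receptor, by 1.12. The member called higher was Scarb2, a lysosomal membrane protein that carries glucocerebrosidase (1.12, adjusted p = 0.00192). Mrc1, Cd93, Clec4a2, Clec4a3, Clec4n and Cd36 kept their calls in every alternative, and normexp correction gave -2.70 for Clec4a3, -2.17 for Clec4a2 and -1.26 for Stab2.

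Border and tissue macrophage genes gave 5 calls of 26, all lower, with a median of -0.97, and 24 of the 26 read lower in NB_Stim. They were Mrc1, Cd36, Gas7, Maf and Ccr1. Gas7, an actin-binding protein, fell by 1.92 ± 0.34, and its call ended under the replicate block (adjusted p = 0.0981) and without any 1 of 4 of the arrays (adjusted p 0.00363 to 0.0727). On slide 2 the median was -0.54, and on slide 1 -1.08. Of the 8 border markers themselves, Mrc1 was the 1 called, and 5 were lower without overlap between the groups, a pattern found in 13.8% of all genes. Their summed signal lay between 15.5 and 16.4 (log2) in NB_Control and between 14.3 and 15.0 in NB_Stim. Pf4, Ms4a7, F13a1 and Folr2 stayed well above background on all 6 arrays, while Lyve1 was well above background on 0 NB_Control arrays and 1 NB_Stim array. Mrc1 and Cd36 stand in both this list and that of scavenger receptors. The part of border macrophages in the fall of the lectins was not tested.

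Called chemokine genes were lower with 1 exception. Of 19 CC chemokines and receptors tested 6 (31.6%) were called lower, against 2% of all genes, and 0 higher. Ccl6, a relative of Ccl9, read 14.19, 14.39 and 12.79 in NB_Control and 10.28, 10.33 and 8.99 in NB_Stim and fell by 3.92 ± 0.55 (15.2-fold, adjusted p = 0.0043). Ccl3 (MIP-1α), an attractant of CCR1-bearing cells, fell by 1.98 ± 0.20 (adjusted p = 0.000604), and its arrays hardly varied within a group, at 10.54, 10.48 and 10.59 and 8.51, 8.42 and 8.77. Ccl2 (MCP-1), the monocyte attractant, fell by 2.40 ± 0.50 (adjusted p = 0.031), a call lost without any 1 of 5 of the arrays (adjusted p 0.00507 to 0.126). The receptor Ccr3 was above background on the 3 NB_Control arrays and 0 NB_Stim arrays. Its fall, estimated as for Spic, was 8.55-fold, which is no strict lower limit. Under normexp correction its log2 difference was -0.81. Among 19 CXC chemokines and receptors, Cxcl5, a neutrophil attractant, was called lower (adjusted p = 0.0081) but was above background on 1 of the 3 NB_Stim arrays, so that its measured fall of 5.05 ± 0.79 (-2.60 with normexp correction) rests partly on signals at background. It had a difference of -6.23 on slide 1 and -2.67 on slide 2, and the replicate block ended the call (adjusted p = 0.0559). Cxcl1 (-2.15) and Cxcl3 (-1.26) were also called lower and Cxcl14 higher (1.49), and all 3 calls ended on leaving out single arrays (adjusted p 0.00352 to 0.126, 0.0224 to 0.0933 and 0.0239 to 0.15). Cxcl3, too, was above background on 1 of 3 NB_Stim arrays and was not called with normexp correction (-0.27).

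Genes called on the lists of inflammatory cytokines and Toll-like receptors were lower, apart from Tlr2. Of 40 NF-κB and cytokine genes 5 were lower and 0 higher, while the median was only -0.13. Il6, the acute-phase cytokine, read 7.86, 8.11 and 8.34 in NB_Control and 5.16, 4.77 and 5.82 in NB_Stim and fell by 2.85 ± 0.28 (7.23-fold, adjusted p = 0.000604), or differed by -1.81 with normexp correction. The inflammatory caspases Casp1 and Casp4 fell by 1.37 ± 0.20 (adjusted p = 0.00586) and 1.89 ± 0.27 (adjusted p = 0.00487). Of 27 Toll-like receptor genes 5 were lower and 1 higher. Tlr4, the receptor for bacterial lipopolysaccharide, fell by 1.55 ± 0.24 (adjusted p = 0.00752) and its partner Ly96 (MD-2) by 1.16 ± 0.17 (adjusted p = 0.00472), and the endosomal Tlr8 fell by 1.20 ± 0.14 (adjusted p = 0.00179). Tlr2, a receptor for bacterial lipoproteins, went the other way, with arrays at 12.25, 12.15 and 11.47 in NB_Control and 13.86, 13.58 and 13.61 in NB_Stim, a rise of 1.73 ± 0.26 (adjusted p = 0.00625).

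Interferon-stimulated genes gave 8 lower and 1 higher call among 44, and their median was -0.96 on slide 1 and -0.04 on slide 2. Ifitm1, Ifitm2 and Ifitm3, membrane proteins that block viral entry, fell by 2.77, 2.02 and 2.00, and their similar sequences may share probes. Normexp correction gave -1.83 for Ifitm1. Gbp7, a guanylate-binding protein, was called lower (-3.45, or -1.33 with normexp correction) and was above background on 1 of the 3 NB_Stim arrays, so that its size rests partly on signals at background. It had a difference of -4.38 on slide 1 and -1.59 on slide 2, and the replicate block ended that call (adjusted p = 0.0754). The call of Ifitm3 was lost without any 1 of 5 arrays (adjusted p 0.035 to 0.117) and that of Ifitm2 likewise (adjusted p 0.0113 to 0.16). Ifi35 rose by 1.24 ± 0.18 (adjusted p = 0.00512). Sting1, the adaptor of cytosolic DNA sensing, which is counted with the ion channels and transporters, read 8.54, 8.68 and 8.63 in NB_Control and 10.67, 10.97 and 11.34 in NB_Stim, up 5.2-fold (adjusted p = 0.000923), close to sorted cells at 11.18 ± 0.46 (SD, n = 3).

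Among immune receptors most calls were again lower. Of 29 Fc and TREM receptors with their adaptors 7 were lower and 2 higher, and of 23 inhibitory receptors, some of them on both lists, 6 were lower and 2 higher. Pirb, an inhibitory receptor for MHC class I, read 10.44, 10.62 and 9.91 in NB_Control and 6.72, 6.57 and 6.99 in NB_Stim and fell by 3.57 ± 0.19 (11.8-fold, adjusted p = 2.69e-05). Close copies such as Lilra6 may share its probes. Lilra5, an activating receptor of this family, was called lower (-1.19, not under the replicate block, adjusted p = 0.0903), but read 0.12 higher when probes not above background on all 6 arrays were left out or the brightest probe alone was used, and -0.23 with normexp correction. Lilrb4a fell by 1.34 ± 0.23 and the activating Fc receptor Fcgr4 by 1.57 ± 0.31, and their calls ended on leaving out single arrays (adjusted p 0.0306 to 0.053 and 0.0116 to 0.103). Tnfrsf21 (death receptor 6) rose by 1.20 ± 0.15 (adjusted p = 0.00244) and Havcr2 (TIM-3) by 0.64 ± 0.13, the latter without a call when any 1 of 5 arrays was left out (adjusted p 0.0293 to 0.134). Trem1 was well above background on 0 of the NB_Control and 2 of the NB_Stim arrays. Its rise, estimated as for Spic, was 2.12-fold, which is no strict lower limit. Its call ended on leaving out single arrays (adjusted p 0.00619 to 0.0997) and with normexp correction (0.22).

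Complement genes gave 6 lower and 0 higher calls among 27, with a median of 0.04. Cfp (properdin), which stabilises the alternative pathway's convertase, fell by 2.03 ± 0.46, the inhibitor Serping1 by 1.87 ± 0.38 and the protease C1ra by 1.63 ± 0.31, and each of these 3 calls ended on leaving out single arrays (adjusted p 0.00173 to 0.166, 0.018 to 0.105 and 0.00247 to 0.0953), with Serping1 at -1.02 under normexp correction. The anaphylatoxin receptors C5ar1 and C3ar1 were called lower as well (-0.80 and -0.64). Among 15 MHC class II genes, H2-Ob, a chain of the peptide-exchange regulator HLA-DO, read 3.18, 3.78 and 2.62 in NB_Control and 8.01, 7.88 and 7.13 in NB_Stim and rose by 4.48 ± 0.32 (adjusted p = 0.000126). It was well above background on 2 of the 3 control arrays, and normexp correction kept the call with a rise of 1.87. Cd74, H2-Aa, H2-Eb1 and Ciita were not called (0.31, 0.09, -0.05 and -0.14), nor was any of 18 MHC class I and immunoproteasome genes.

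Lipid genes split. The list of apolipoproteins and LXR targets had the highest share of calls among lists of more than 10 genes (10 of 25, 40%), with 6 higher and 4 lower, and its median was 0.05. Apoc4 rose by 1.71 ± 0.22 (adjusted p = 0.00265), from 9.62 ± 0.27 to 11.33 ± 0.29 (SD, n = 3), without overlap. Apoc1 and Apoc2, carried on the same gene cluster and bound to lipoproteins, rose by 3.83 ± 0.82 and 2.67 ± 0.56, with NB_Stim arrays at 15.29, 15.10 and 14.94 and 15.28, 15.03 and 14.83. Control replicate 3 of both read lowest, and the calls ended on leaving out single arrays (adjusted p 0.0398 to 0.126 and 0.0582 to 0.125). The cholesterol exporter Abcg1 rose by 1.57. Ch25h, the cholesterol 25-hydroxylase, rose by 2.80 ± 0.62, a call lost without any 1 of the 6 arrays (adjusted p 0.0801 to 0.14). Lipa, the lysosomal acid lipase, fell by 1.03 ± 0.16, a call that the replicate block ended (adjusted p = 0.0649).

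Of 23 cholesterol synthesis genes 20 read lower, with a median of -0.52 and 2 calls, both lower, among them Insig1, a feedback sensor of sterols (-1.36). Of 39 genes of fatty acid metabolism 2 (5.13%) were called, both lower, against 2% of all genes. They were Pparg and the lipid chaperone Fabp4, which fell by 2.07 ± 0.20 (4.2-fold, adjusted p = 0.000531). The call of Insig1 ended on leaving out single arrays (adjusted p 0.0244 to 0.0946), whereas Fabp4 kept its call in every alternative and differed by -3.16 on its brightest probe.

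In the IGF axis the largest members moved in opposite directions. Against the rise of Igfbp5, Igfbp4 read 12.73, 12.52 and 12.76 in NB_Control and 9.82, 9.86 and 10.12 in NB_Stim and fell by 2.74 ± 0.20 (6.67-fold, adjusted p = 0.000137). Sorted cells read 12.62 ± 0.40 for Igfbp4 and 7.31 ± 0.08 for Igfbp5 (SD, n = 3), so in both genes the control cultures lay nearer to them than the stimulated ones. The RNA-binding proteins Igf2bp2 (-1.49) and Igf2bp3 (-0.61) were called lower, and both calls ended on leaving out single arrays (adjusted p 0.0341 to 0.0852 and 0.0885 to 0.158), with Igf2bp2 at -0.97 on the slide 1 arrays alone.

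Among 32 metalloproteinases and inhibitors 5 were called lower and 1, Adam10, higher. Mmp13, a collagenase, read 10.09, 10.02 and 10.55 in NB_Control and 7.45, 7.11 and 7.66 in NB_Stim and fell by 2.81 ± 0.27 (7.03-fold, adjusted p = 0.000506). Mmp12, the macrophage elastase, fell by 3.41 ± 0.65, a call lost without NB_Stim replicate 1 or 2 (adjusted p 0.0129 to 0.0947), and Mmp19 by 1.20 ± 0.17 (adjusted p = 0.00511). Mmp3 (stromelysin) fell by 1.86 ± 0.34, and its call ended without any 1 of 5 arrays (adjusted p 0.00421 to 0.0788). Extracellular matrix and contractile genes gave 2 lower calls of 36 (5.56%, against 2% of all genes), Col6a2 (-2.10) and Col3a1 (-1.12). Their median was -0.03 on slide 1 and -1.03 on slide 2, and Col6a2 lost its call under the replicate block (adjusted p = 0.0608). The fibroblast marker medians given above moved with these, and their part was not tested. The call of Col3a1 ended on leaving out single arrays (adjusted p 0.0319 to 0.118). Of 22 integrin subunits Itgb5 and Itgal were higher and Itga8 (-1.52) and Itga9 (-1.53) lower. The calls of Itgal and Itga9 ended on leaving out single arrays (adjusted p 0.00399 to 0.0744 and 0.0244 to 0.0564), and normexp correction gave 0.60 and -1.01. Itga8 was above background on 1 of 3 NB_Stim arrays and read -0.34 with that correction. Emp1, an epithelial membrane protein of the adhesion list, fell by 2.20 ± 0.28 (adjusted p = 0.00266), and Parvg, a leukocyte parvin that links integrins to actin, rose by 1.59 ± 0.20 (adjusted p = 0.00233). Without the filter on dim probes Parvg and Itga8 were not called (0.82 and -0.34).

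Proliferation lists held calls in 2.27% (mitosis and spindle) and 6.98% (DNA replication) of their genes, against 3.4% of all genes. Of 44 mitosis and spindle genes 39 read lower, with a median of -0.61, but 1 was called, the centromere histone Cenpa (-1.56 ± 0.24, adjusted p = 0.00641), and the replicate block ended that call (adjusted p = 0.077). Of the 44, 14 were lower without overlap between the groups (31.8%), against 13.8% of all genes. In 43 replication genes the median was -0.34, 36 read lower, and 18 (41.9%) were lower without overlap. Gins2, of the helicase complex (-0.75), and Pola1, the catalytic subunit of DNA polymerase α (-0.60), were called lower, and both calls ended on leaving out any 1 of the 6 arrays (adjusted p 0.0555 to 0.0957 and 0.0639 to 0.138) and under the replicate block (adjusted p = 0.0538 and 0.0753). E2f2, an E2F activator of S phase, rose by 2.21 ± 0.17 (4.62-fold, adjusted p = 0.00018), from 6.45, 6.11 and 5.84 to 8.51, 8.22 and 8.28. Cdk6 fell by 1.24 ± 0.23 (-0.75 with normexp correction), a call lost without any 1 of 5 arrays (adjusted p 0.0455 to 0.0738).

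Of 38 NRF2 targets 7 (18.4%) were called lower, against 2% of all genes, and 0 higher, and 31 read lower. G6pdx, the first enzyme of the pentose phosphate pathway, read 13.98, 13.72 and 14.01 in NB_Control and 12.63, 12.59 and 12.50 in NB_Stim and fell by 1.33 ± 0.12 (2.52-fold, adjusted p = 0.000397), and Gsr, glutathione reductase, fell by 1.19 ± 0.16 (adjusted p = 0.00338). Gsta3, a glutathione transferase, fell by 2.80 ± 0.62 (-1.68 with normexp correction), Srxn1, sulfiredoxin, by 1.22 ± 0.23, and the calls of both ended on leaving out single arrays (adjusted p 0.0386 to 0.163 and 0.0398 to 0.0658). Among 25 iron and heme genes, the iron exporter Slc40a1 (ferroportin) fell by 2.35 ± 0.44, a call lost without NB_Stim replicate 1 or 2 (adjusted p 0.00959 to 0.0869), biliverdin reductase Blvra fell by 1.11 ± 0.15 (adjusted p = 0.00385), and the heme transporters Slc48a1 and Slc46a1 were called in opposite directions (-0.93 and 0.91). The replicate block ended the call of Slc48a1 (adjusted p = 0.0648) and leaving out single arrays that of Slc46a1 (adjusted p 0.00842 to 0.174).

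Lysosomal genes gave 4 higher calls and 1 lower among 55. Ctsh, an aminopeptidase cathepsin, rose by 1.09 ± 0.15 (adjusted p = 0.00423), and Ctse, an aspartic cathepsin, by 2.00 ± 0.43 (1.08 with normexp correction), a call lost without any 1 of the 6 arrays (adjusted p 0.0872 to 0.107). Several large lists held 0 calls: 70 cytosolic ribosomal proteins (median 0.21, 61 above 0), 54 respiratory chain subunits (median -0.03), 36 heat shock and ER stress genes, 26 Wnt pathway genes and 18 S100 and WAP-domain genes. Disease-associated microglia genes gave 1 higher call, the tetraspanin Cd9 (1.29, adjusted p = 0.00471), and 2 lower, Ccl6 and Ccl3, among 33. The share called was 9.09%, against 3.4% of all genes. Immediate early genes, which mark recent disturbance of cells, had 1 higher and 1 lower call among 27 (7.41%, against 3.4% of all genes) and a median of -0.13. Rhob, an endosomal small GTPase, and Dusp1, a phosphatase that switches off MAP kinases, differed by 1.13 and -1.16, and the call of Dusp1 ended without any 1 of the 6 arrays (adjusted p 0.0745 to 0.134).

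**Figure D4:**
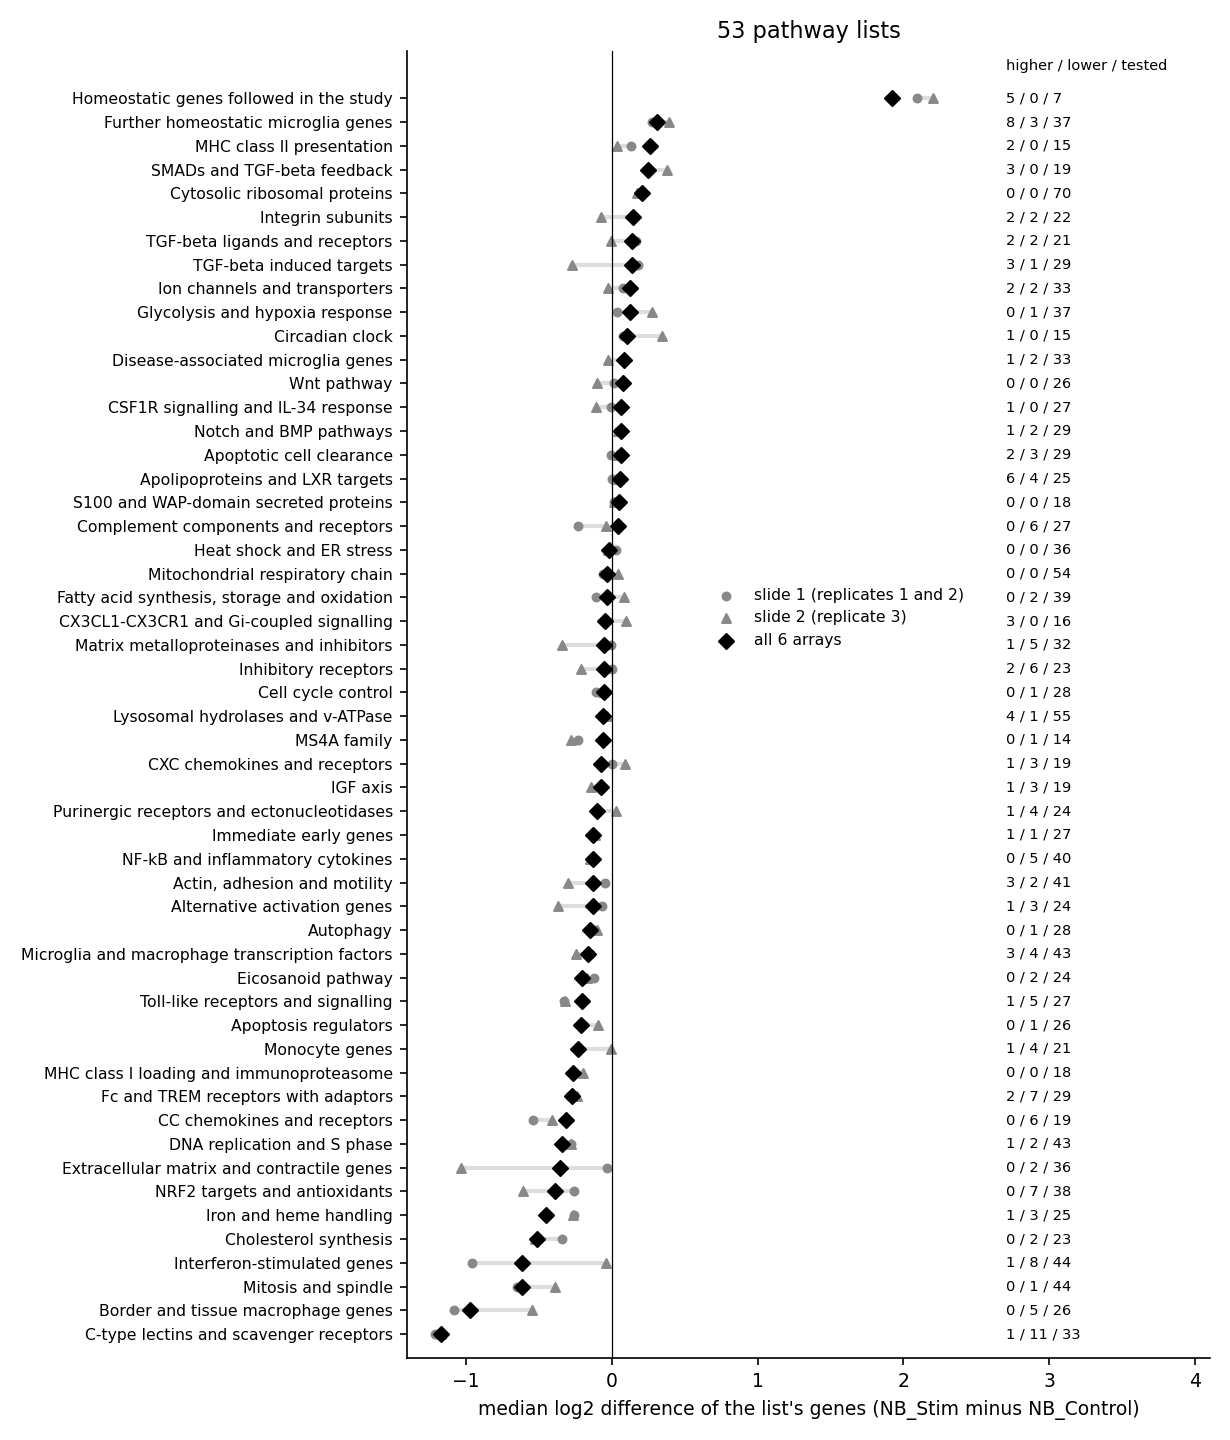
Median log2 difference (NB_Stim minus NB_Control, horizontal axis) of the tested genes of each of 53 pathway lists, as diamonds over all 6 arrays, circles within slide 1 and triangles within slide 2, with the numbers called higher, called lower and tested at the right. The C-type lectin and border macrophage lists lie lowest, the homeostatic genes followed in the study lie highest, and the interferon and extracellular matrix lists differ most between the slides.

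Promoter sequences were at hand for 14987 of the genes tested, of which 217 were called higher and 294 lower. GTCTAGA stood in 3.69% of the promoters of genes called higher, in 2.04% of those called lower and in 2.2% of all, counts of 8, 6 and 329. The shorter GTCTG was found in 48.4%, 45.6% and 48.5%. GAGGAAG was found in 13.8%, 15.3% and 13.4%, TGACTCA in 5.53%, 6.12% and 4.54%, and CACGTG in 7.83%, 8.5% and 8.45%. None of these motifs contains another. The shares of genes called higher or lower were not tested against those of all promoters.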

How the data were processed

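The members and gene lists were chosen with earlier results of these data known. The authors deposited single-colour Agilent scanner files (Feature Extraction 11.5.1.1 per the file headers) with a background-subtracted signal intensity per spot, and a series table of the same signal intensity, with a probe annotation. Control spots and outlier-flagged spots were left out, log2 intensity was taken here from the deposited values, all 11 arrays were quantile normalised as in the study, and spots of a probe were averaged. Probes had to be well above background on all arrays of 1 or more groups. Probes were named through RefSeq accessions (GRCm38.p6, 60.4% of 60037 probes matched) and averaged per gene, leaving 19572 genes, 14670 of them from 1 probe. Antisense or overlapping genes were not separated beyond the probe design.

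Genes were fitted with 1 mean per group over 4 groups in limma 3.58.1 (R 4.3.3, with data.table version 1.17.8), with 7 residual and 2.69 prior degrees of freedom, and adjusted by Benjamini-Hochberg. Lists (53 pathway, 10 marker, 1360 genes tested) were described by counts and medians, and several share genes. Named genes were the 12 largest rises and falls with all probes above background and no overlap, up to 4 called members per list and direction, and defining members of the added cytokines' pathways. A few further list members are given by value, chosen after their values were seen. Some list genes are left unreported, and Sall1, Spi1, Irf8, Smad4, Smurf2 and Pmepa1, which had no matched probe, were not analysed here. Same-numbered cultures deviated together (r = 0.367, 0.27 and 0.489), following the slides. Between 66.8% and 80.5% of probes were well above background per array and 0 spots were saturated. The number of arrays limits the precision. On simulated data the fit recovered 52% of 100 genes changed by a log2 difference of 1 and 84% of 100 changed by 2, with 8 false calls among 19572 genes. The simulation gave each array independent noise, whereas replicates 1 and 2 of a culture were alike and same-numbered cultures deviated together. It therefore cannot measure the false calls in these data. Figures were drawn with matplotlib 3.10.9.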

Additional observations from a re-analysis of the deposited data

Results flagged for a closer look

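Of 16702 probes that passed the filter but matched no gene name, 244 (1.46%) were called between NB_Stim and NB_Control, 109 higher and 135 lower. They stand outside the comparison of named genes and are given because a signal appears in data that comparison does not use. What they measure was not examined.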

How the results depend on the processing

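All 666 calls were found again with slide as a block, which called 1474 genes (581 higher, 893 lower), and in the series table of the same values. Normexp background correction called 1008 (624 lower), the 75th percentile scaling 906, the slide 1 arrays alone, a setting added after the data were seen, 1018 (609 lower), and the probes and models otherwise varied between 512 and 781. The methods' Tukey test called 183 after adjustment (87 higher, 96 lower), replicates 1 and 2 averaged 118 (60 higher, 58 lower), and a minimum log2 difference of 1 left 425 (179 higher, 246 lower). Leaving out 1 array gave 296 to 609 calls, 117 to 257 higher and 172 to 352 lower. Same-numbered cultures shared a slide, and the replicate block called 637 (278 higher, 359 lower). The calls of named genes that it ended are given beside them or fell with single arrays left out. Depth is not known for arrays, and for a gene below the background mark on all arrays of a group the difference is only an estimate.

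Among named genes, 1 called gene turned its sign, Lilra5, to 0.12 with probes above background on all 6 arrays and with the brightest probe. Uncalled genes near 0 turned as follows. The 75th percentile scaling gave -0.0583 for Smad1, -0.22 for Tgfb3 and -0.0941 for Smad7, averaging gave -0.038 for Tgfb3 and -0.0426 for Smad7, and normexp gave -0.0343 for Smad3. On slide 1 alone the values were -0.10 for Smad1, -0.0601 for Smad9, -0.19 for Smad3, 0.10 for Tgfb1 and -0.0378 for Cx3cl1. Without 1 array they ranged from -0.0131 to 0.20 for Smad1, -0.19 to 0.29 for Smad9, -0.23 to 0.20 for Smad3, -0.22 to 0.50 for Tgfb3, -0.16 to 0.40 for Smad7, -0.22 to 0.15 for Tgfb1 and -0.00222 to 0.17 for Csf1r. The cause was not tested.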
